A study of Mus musculus with 2 samples.

Results

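Chromatin accessibility was examined at 10 genes encoding transcription factors of the primitive streak and of the earliest cardiac mesoderm: T (brachyury), Eomes, Mesp1, Mesp2, Mixl1, Gsc, Evx1, Lhx1, Tbx6 and Msgn1. The genes were taken as a named list, and a peak was counted for a gene when the gene symbol attached to it in the deposited list was that of the gene. By this rule 7 of the 10 genes had at least 1 peak, with 15 distinct peaks among 26232 in the list, and Lhx1, Tbx6 and Msgn1 had no assigned peak. The assay was ATAC-Seq, which uses Tn5 transposase to cut exposed DNA and insert sequencing adapters, and the cells were embryonic stem cell-derived cardiac progenitors (CPCs) on day 5 of differentiation. The 2 samples are replicates of 1 group, come from independent differentiations per the study's methods, and carry no knockdown. The cells were E14 Tg(Nkx2–5-EmGFP) mouse embryonic stem cells of passages 16-20, which carry an EmGFP reporter for the cardiac transcription factor Nkx2-5. The strain field of the labels reads C57BL/6. All cells were exposed to BMP4 and LIF, then to Activin A, VEGF and BMP4 in aggregates, and then to VEGF, bFGF and FGF10 as a monolayer. Isl1 knockdown cells are not analysed here.

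During gastrulation, cells leave the epiblast through the primitive streak and become mesoderm or endoderm. Nodal and Activin, BMP and Wnt signals induce the streak. T and Eomes are T-box factors that act at this step, and Mixl1, Gsc, Evx1 and Lhx1 are homeodomain factors with different positions along the streak and in its derivatives. Mesp1 and Mesp2 are neighbouring bHLH factors, of which Mesp1 marks the first cardiac mesoderm and Mesp2 is best known for segmentation of the somites. Tbx6 and Msgn1 act in presomitic mesoderm. Activity of these genes at the streak comes before the cardiac progenitor stage, though not all of them are active only there. The question asked here is at which of these genes open regions were called in CPCs.

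The values that can be read from the list are the position and width of each peak and the signed distance from a transcription start site (TSS) to its midpoint, negative upstream. There is no value for a single replicate, no peak height and no depth, so no replicate error exists and no difference could be tested. Each interval is a region called in both replicates, where an overlap of at least 1 bp was enough, so its edges need not agree between them. A gene without a peak was therefore not shown to be closed. Markers of cardiac progenitors, pluripotent cells, endoderm and neural cells all carried assigned peaks (5 of 6, 3 of 4, 2 of 2 and 2 of 2 genes), with none at Hand2 and Pou5f1, so cell identity was taken from the labels. Per the study's methods, cells positive for the Nkx2-5 reporter were sorted for RNA extraction, and no sorting is stated for ATAC-Seq. The share of other cells in these samples was not measured here. All positions are on mm9.

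The 10 genes fell into 3 kinds. At T and Eomes several peaks were assigned, including 1 at the start site. At Mesp2, Mixl1, Evx1 and Lhx1 a peak lay over the start site, and at Evx1 and Lhx1 that peak carried the symbol of a noncoding RNA gene. At Mesp1, Gsc, Tbx6 and Msgn1 no peak was found at the start site. Of 21900 protein coding reference genes 62.5% had at least 1 assigned peak, so the share of 70% (7 of 10, 95% Wilson confidence interval 39.7 to 89.2%) was near that of genes in general. At least 3 peaks were assigned to 2 members, T and Eomes, and to 10.3% of protein coding genes. The mean was 1.5 peaks over the 10 members and 1.07 over all protein coding genes, and T alone held 40% of the members' peaks.

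**Figure D1:**
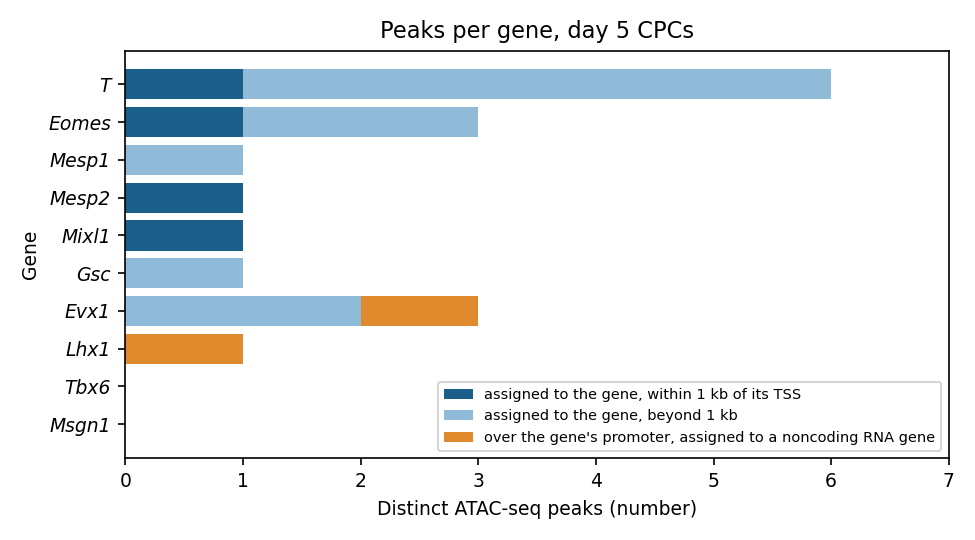
Number of distinct ATAC-Seq peaks (horizontal axis) for each of the 10 genes (vertical axis), from the 1 list shared by both replicates, so there is no error bar, with peaks within 1 kb of the TSS in dark blue and others in light blue. T had 6 peaks, Eomes 3 and Evx1 2, and at Evx1 and Lhx1 1 further peak over the promoter was assigned to a noncoding RNA gene (orange).

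T encodes brachyury, a DNA-binding activator of mesodermal genes, and lies on the plus strand of chromosome 17 (8627288 to 8635361). The T start site was covered by a 1548 bp peak that reached from −1220 to 327 bp (chr17:8626068-8627615, midpoint −447 bp). This start-site peak was the widest of the 6. Its GC content was 62.4%, and its observed over expected CpG ratio was 0.69. The other 5 peaks flanked the gene on both sides, and none lay inside it. Upstream peaks were at −12612 bp (618 bp wide, chr17:8614368-8614985) and −18649 bp (759 bp wide, chr17:8608261-8609019), both in an intron of the annotated gene T2. Downstream peaks lay past the end of T in intergenic sequence, at 13529 bp (508 bp wide, chr17:8640564-8641071), 21213 bp (1171 bp wide, chr17:8647917-8649087) and 34476 bp (976 bp wide, chr17:8661277-8662252). The 6 peaks together covered 5580 bp within a span of 53992 bp, with gaps of 5348 to 12948 bp between neighbours. The 508 bp peak was among the narrowest of the list, since 97.3% of all peaks beyond 1 kb from a TSS were at least as wide.

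A total of 300 genes, 1.95% of the 15351 genes with a peak, had 6 or more peaks like T. The protein coding neighbours of T are far away, with start sites at −94017 bp (Prr18) and 90949 bp (Pde10a). The part of this spacing in the number of peaks assigned to T was not tested. Counted without assignment, 8 peaks had their midpoint within 50 kb of the T TSS, against a median of 2 (quartiles 1 and 4) over 22359 protein coding start sites, and 2.20% of those had 8 or more. The 2 additional peaks, at −25336 and −45179 bp, carried the symbol Gm16702.

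Eomes encodes a T-box factor required for mesoderm and definitive endoderm formation, and lies on the plus strand of chromosome 9 (118387330 to 118395250). Its start-site peak of 1632 bp reached from −44 to 1587 bp relative to the annotated TSS (chr9:118387286-118388917, deposited distance 794 bp). At 65.1% it had the highest GC content of the 15 peaks. The other 2 Eomes peaks lay directly behind the gene, at 8610 bp (1135 bp wide, chr9:118395351-118396485) and 11371 bp (1560 bp wide, chr9:118397899-118399458), separated from each other by 1413 bp. Both were intergenic. The peak at 11371 bp was wide for its position, since 8.89% of all peaks beyond 1 kb from a TSS were at least as wide. Upstream of Eomes the next peak was at −62034 bp, whereas 3 peaks assigned to Golga4 lay 28079 to 42894 bp downstream. Open regions at Eomes were thus found at the start and behind the end of the gene, and at T on both sides.

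**Figure D2:**
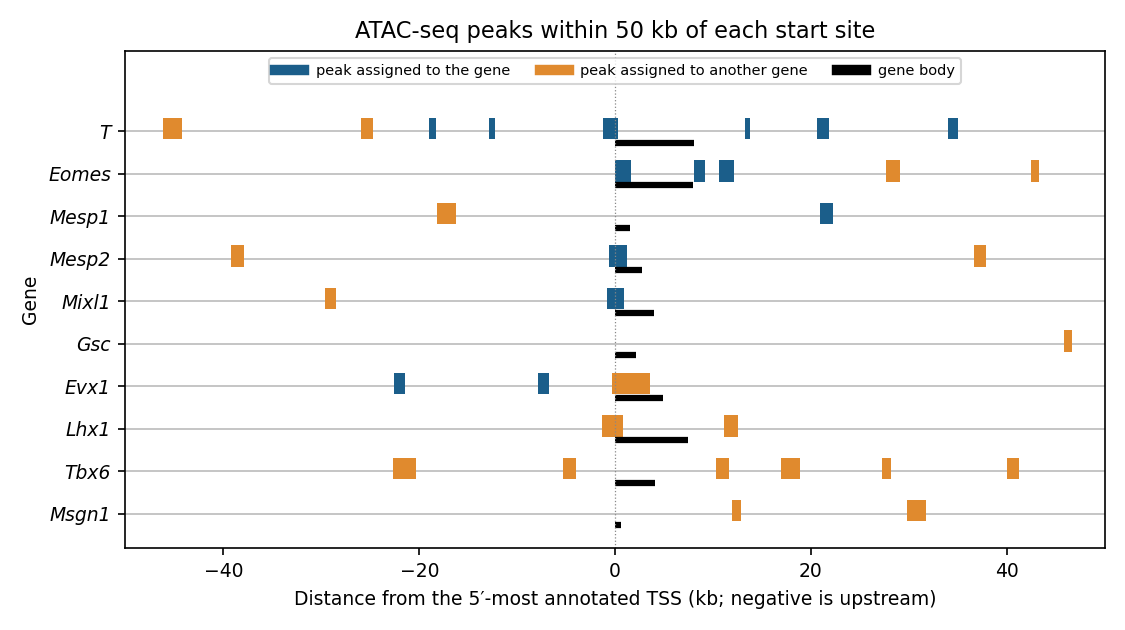
ATAC-Seq peaks, drawn to scale, within 50 kb of the 5′-most annotated TSS of each gene (horizontal axis, kb, negative upstream in the direction of transcription), with gene bodies as black bars. Peaks assigned to the gene are blue and peaks assigned to other genes orange; T had 8 peaks in this window and Gsc 1.

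Mixl1, a paired-type homeobox gene induced by Nodal signalling, had a single peak of 1727 bp centred on its TSS on the minus strand of chromosome 1 (chr1:182626251-182627977, distance 52 bp). No other peak carried its symbol, and the next peaks on either side were at −29062 bp (Acbd3) and 55684 bp (Lin9). Mesp2 likewise had 1 peak, of 1892 bp, over its TSS on the plus strand of chromosome 7 (chr7:86954966-86956857, distance 298 bp). This was the widest of the 15 peaks, and 16.6% of all peaks within 1 kb of a TSS were at least as wide.

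Mesp1 and Mesp2 are transcribed away from each other, with the Mesp2 start site at −16939 bp from that of Mesp1, and differed in this list. No peak overlapped the 500 bp on either side of the Mesp1 TSS. The nearest peak was the one over Mesp2, at −17238 bp, and no peak midpoint lay between the start sites. The peak assigned to Mesp1 was 21397 bp downstream of its start, in an intron of Wdr93 (chr7:86916400-86917760, 1361 bp wide). The paralogues are related in sequence, and the placing of reads between them was not tested.

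Gsc encodes goosecoid, a factor of the anterior streak and organizer. It had 1 assigned peak, of 1467 bp, at −132855 bp in intergenic sequence on chromosome 12 (chr12:105843569-105845035). The closest peak of any symbol was assigned to Serpina3n and lay 46238 bp downstream, the only one within 50 kb of the Gsc TSS. Of all protein coding start sites 19.3% had their nearest peak at least as far away. Evx1, a homeobox gene of the posterior streak next to the Hoxa cluster, had 2 assigned peaks in intergenic sequence upstream on chromosome 6, at −7340 bp (1113 bp wide, chr6:52255597-52256709) and −22028 bp (1079 bp wide, chr6:52240926-52242004).

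The symbol rule left out start-site peaks at 2 members. A peak of 3886 bp, assigned to the noncoding RNA gene Evx1os (NR_038163, distance −299 bp), covered the Evx1 TSS and 3577 bp or 73.3% of the Evx1 gene body (chr6:52263183-52267068). It was wider than each of the 15 assigned peaks, and 0.309% of all peaks in the list were at least as wide. At Lhx1, which encodes a LIM homeodomain factor of the organizer and of intermediate mesoderm, a peak of 2084 bp assigned to Lhx1os (NR_038057, distance 14 bp) covered the Lhx1 TSS on the minus strand of chromosome 11 (chr11:84338135-84340218). Lhx1os had 1 further peak, at 78881 bp. By these distances both RNA genes start inside the same peak as the coding gene, and which of each pair an open start site serves cannot be told from a peak. Counting peaks over the promoter whatever their symbol raised the members with a peak from 7 to 8 and the peaks from 15 to 17. Such cases were not rare: of 10885 promoters with a peak and a gene symbol known to the list or the reference, 11.0% had only peaks with another symbol.

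For the presomitic genes Tbx6 and Msgn1 no peak was assigned and none overlapped the promoter. Tbx6 lies among densely spaced genes on chromosome 7. Within 50 kb of its TSS 6 peaks were found, as many as at Eomes, and all carried other symbols (Mapk3, Ypel3, Ppp4c, Aldoa and Fam57b), the nearest being that of Ypel3 at −4628 bp. At Msgn1 the nearest peaks were 12408 and 30796 bp downstream of the annotated start and assigned to the noncoding gene 9530020I12Rik. The annotated Msgn1 model is 567 bp long, as is the reference one, and its start may not be the start of transcription.

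Base composition of the promoters was set beside these positions, because CpG-rich promoters carried peaks more often in the whole list. For each gene the window ran 500 bp to both sides of the most upstream TSS of its coding transcripts. CpG-rich promoters were those with a GC content of 50% or more whose CpG count reached 0.6 times the number expected from base composition. Over all protein coding promoters 53.5% overlapped a peak, and the same was true of 6 of 10 members (T, Eomes, Mesp2, Mixl1, Evx1 and Lhx1). In each of these 6 genes the peak covered the TSS itself. Of the 6 members with a CpG-rich promoter 5 had a peak, against 89.4% of all 9965 CpG-rich promoters. Of the 4 with a CpG-poor promoter 1 had a peak, Mesp2, against 24.7% of all 12394. Neither count stood far from the share over all promoters of its class. The exceptions to these 2 classes were Gsc, with the highest CpG ratio of the 10 (0.93) and no peak, and Mesp2, with a ratio of 0.55 and a peak. Ratios of the other members with a peak ran from 0.61 at Evx1 to 0.86 at Lhx1, and those of Mesp1, Tbx6 and Msgn1 were 0.41, 0.33 and 0.32. Set beside promoters of the same narrow range of GC content and CpG ratio, Mesp2 was no exception, since 85.0% of 294 had a peak. By this measure Gsc and Mesp1 lacked a peak where most promoters had one (89.2% of 287 and 65.3% of 320).

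**Figure D3:**
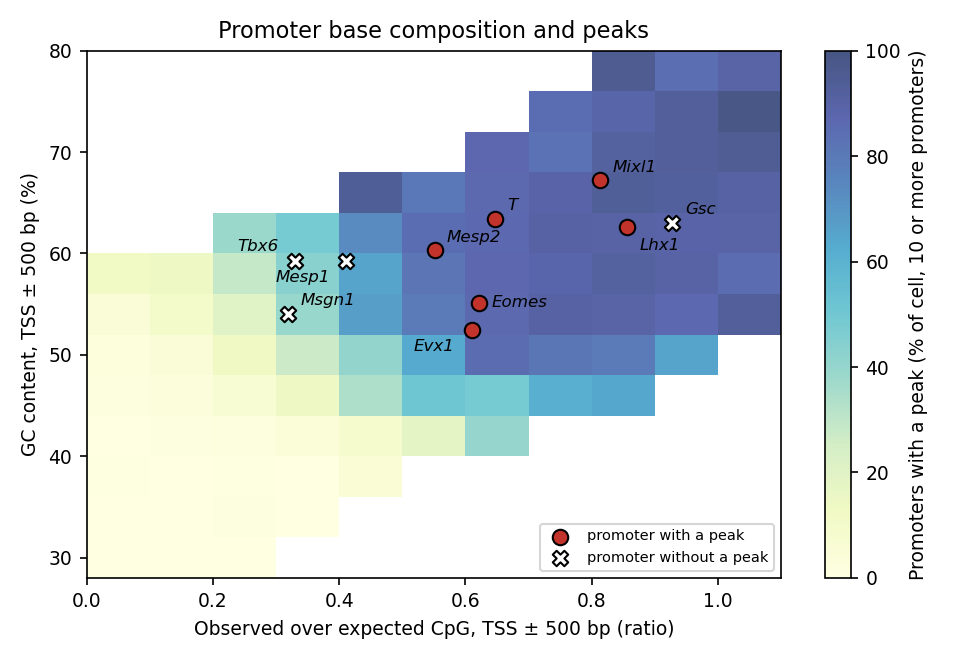
GC content (%, vertical axis) against the observed over expected CpG ratio (horizontal axis) of the promoters of the 10 genes, over cells coloured by the percentage of all protein coding promoters of that composition with a peak. Gsc (ratio 0.93, cross) and Mesp1 (0.41, cross) had no peak although they lie among promoters that mostly did, and Tbx6 and Msgn1 (crosses) lie at ratios of 0.33 and 0.32.

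To show the base composition next to the start sites, the 150 bases just upstream of the TSS were read from NCBIM37 (mm9) 5′ to 3′ in the direction of transcription with each CpG in capitals. Given are all 6 start sites with a peak and, of the 4 without, Gsc, Mesp1 and Tbx6. Msgn1, whose start is uncertain, had 2 CpG in this stretch.
T (chr17:8627138-8627287, plus strand, 8 CpG, peak): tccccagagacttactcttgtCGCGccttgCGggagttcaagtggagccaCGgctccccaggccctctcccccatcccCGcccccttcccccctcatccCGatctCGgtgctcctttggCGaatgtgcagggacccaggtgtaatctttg
Mixl1 (chr1:182627166-182627315, minus strand, 22 CpG, peak): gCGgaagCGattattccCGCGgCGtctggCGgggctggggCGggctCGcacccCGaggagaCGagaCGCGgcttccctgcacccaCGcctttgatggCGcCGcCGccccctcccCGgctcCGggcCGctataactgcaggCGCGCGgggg
Lhx1 (chr11:84338924-84339073, minus strand, 11 CpG, peak): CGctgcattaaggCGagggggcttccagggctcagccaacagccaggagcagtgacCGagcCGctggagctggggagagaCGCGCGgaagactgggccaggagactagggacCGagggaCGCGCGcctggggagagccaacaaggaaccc
Eomes (chr9:118387180-118387329, plus strand, 4 CpG, peak): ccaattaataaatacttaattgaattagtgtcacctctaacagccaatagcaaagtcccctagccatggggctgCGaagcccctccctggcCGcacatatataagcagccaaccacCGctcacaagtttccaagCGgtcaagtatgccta
Mesp2 (chr7:86955463-86955612, plus strand, 6 CpG, peak): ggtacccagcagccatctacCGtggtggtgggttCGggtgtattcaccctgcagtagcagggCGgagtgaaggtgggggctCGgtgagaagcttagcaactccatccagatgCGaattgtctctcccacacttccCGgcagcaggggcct
Evx1 (chr6:52263342-52263491, plus strand, 6 CpG, peak): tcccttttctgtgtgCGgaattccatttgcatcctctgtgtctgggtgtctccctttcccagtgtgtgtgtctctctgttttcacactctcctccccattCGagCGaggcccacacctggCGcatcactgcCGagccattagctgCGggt
Gsc (chr12:105711538-105711687, minus strand, 9 CpG, no peak): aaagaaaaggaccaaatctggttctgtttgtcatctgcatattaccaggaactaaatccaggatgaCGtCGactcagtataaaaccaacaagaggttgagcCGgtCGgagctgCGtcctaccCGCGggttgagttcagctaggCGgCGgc
Mesp1 (chr7:86938675-86938824, minus strand, 3 CpG, no peak): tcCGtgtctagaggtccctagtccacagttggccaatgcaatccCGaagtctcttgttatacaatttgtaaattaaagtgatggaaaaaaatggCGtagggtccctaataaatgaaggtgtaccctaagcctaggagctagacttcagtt
Tbx6 (chr7:133924847-133924996, plus strand, 2 CpG, no peak): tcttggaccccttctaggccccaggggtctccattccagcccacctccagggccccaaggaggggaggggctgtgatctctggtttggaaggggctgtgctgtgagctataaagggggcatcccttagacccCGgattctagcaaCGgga
CpG counts in these stretches overlapped between start sites with a peak (4 to 22) and without (2 to 9). The Gsc stretch, with no peak, held more CpG than those of T, Eomes, Mesp2 and Evx1.

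The members' peaks were described as a group by distance and width. Within 1 kb of the TSS lay 4 of 15 peaks, or 26.7% (95% Wilson confidence interval 10.9 to 52.0%), those of T, Eomes, Mesp2 and Mixl1, while 44.9% of all peaks did. Between 10 and 50 kb lay 8 of 15 (53.3%, 30.1 to 75.2%), of which 5 belonged to T, against 24.4% of all peaks. The share of all peaks lay below that interval, but the 15 peaks come from 7 genes and are not independent. The median absolute distance was 12612 bp, against 4154 bp over all peaks. The interval of the members' median, 794 to 21397 bp, held the value of all peaks. By GENCODE annotation 8 peaks were intergenic and 3 intronic, each in an intron of another gene (T2 or Wdr93), and no peak beyond 1 kb lay inside the member it was assigned to.

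Start-site peaks had a higher median width than distal ones, as in the whole list, and their ranges overlapped at 1 Eomes peak. The 4 peaks within 1 kb measured 1548, 1632, 1727 and 1892 bp, all above the median of 1326 bp of their class. The 11 distal peaks ran from 508 bp at T to 1560 bp at Eomes with a median of 1113 bp, against 911 bp (quartiles 735 and 1146 bp) over all peaks beyond 1 kb. The 5 distal peaks of T ran from 508 to 1171 bp with a median of 759 bp, and the 6 of Eomes, Evx1, Mesp1 and Gsc from 1079 to 1560 bp. These ranges overlapped through the 1171 bp peak of T. GC content of the distal peaks was 48.8 to 55.7%, and of the start-site peaks 58.1 to 65.1%, with no overlap. In the whole list the medians of these classes were 51.4% and 58.6%.

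**Figure D4:**
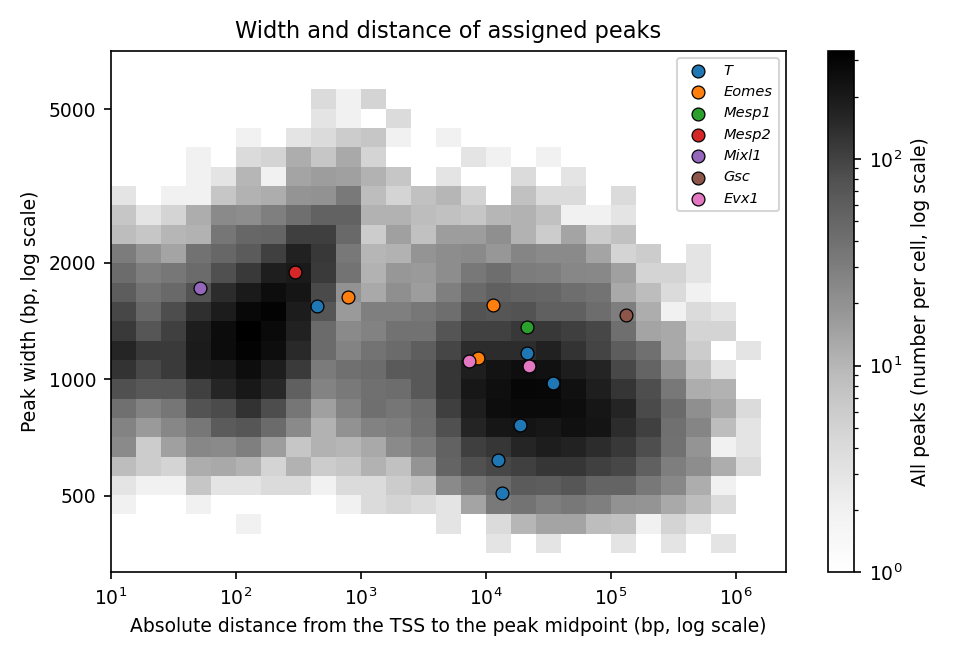
Width (bp, log scale, vertical axis) against absolute distance from the TSS (bp, log scale, horizontal axis) of the 15 assigned peaks, coloured by gene, over the number of all 26232 peaks per cell in grey (distances under 10 bp are drawn at 10 bp). The 4 start-site peaks measure 1548 to 1892 bp, and the narrowest points are distal peaks of T.

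Sequence motifs of chosen transcription factors were searched as fixed letters on both strands in the 400 bp at the centre of each peak. Action of these factors on the members was not tested. The letters were AGGTGTGA for T-box factors, CTTTGAT for Tcf/Lef, AATCCACA for FoxH1, AGATAA for GATA factors, CTAATG for Isl1 and CAAATGG for Mesp1. None of these letter strings contains another on either strand. Letters of Tcf/Lef factors, which act at the end of canonical Wnt signalling, were in 3 of 15 member peaks and in 4.01% of all peaks. They were in the start-site peaks of T and Mixl1, at −399 and −59 bp from the TSS, and in the T peak at −12612 bp. Mesp1 letters were in 2 of 15 (Eomes at 8610 bp and Mesp1 itself at 21397 bp, against 3.67% of all peaks), GATA letters in 2 of 15 (Mesp2 and Gsc, against 12.1%) and T-box letters in 1 of 15 (Mesp2, against 1.53%). FoxH1 and Isl1 letters were in none of the 15, and in 0.884% and 8.50% of all peaks. Shares differed by distance from the TSS. Of the 11 member peaks beyond 1 kb, Tcf/Lef letters were in 1, against 5.74% of all peaks beyond 1 kb. Mesp1 letters were in 2 of the 11 (against 4.88%) and GATA letters in 1 (against 18.3%). T-box, FoxH1 and Isl1 letters were in 0 of the 11 (against 2.13%, 1.22% and 12.2%). With 15 peaks these counts are a description, and a match is not a bound site.

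The matches are shown in 30 bases, 5′ to 3′ on the strand of the gene with the letters searched in capitals and the distance from the TSS to their midpoint. Where they stand on the other strand they read as their reverse complement.
T, Tcf/Lef (chr17:8614633-8614662, plus strand, −12641 bp from the TSS): ctctccatgagATCAAAGgactgatgagag
T, Tcf/Lef (chr17:8626875-8626904, plus strand, −399 bp): ccgccccgccgCTTTGATggaggtgcaaac
Mixl1, Tcf/Lef (chr1:182627210-182627239, minus strand, −59 bp): ctgcacccacgcCTTTGATggcgccgccgc
Eomes, Mesp1 letters (chr9:118395897-118395926, plus strand, 8581 bp): aaagaagtattCCATTTGtctggtacactg
Mesp1, Mesp1 letters (chr7:86917255-86917284, minus strand, 21405 bp): agagggaagagaCCATTTGccaggctcccc
Mesp2, T-box (chr7:86955733-86955762, plus strand, 135 bp): aggggaccaccTCACACCTttagtccagat
Mesp2, GATA (chr7:86955747-86955776, plus strand, 149 bp): cacctttagtccAGATAAaagctaggacct
Gsc, GATA (chr12:105844271-105844300, minus strand, −132749 bp): acacgacactatAGATAAtgcttcttggtc
At Mesp2 both printed stretches overlap, with the GATA letters downstream of the T-box letters.

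To place the members among genes acting before, with and after them, 3 further lists were counted. Of 23 other genes of the streak and gastrulation 19 (82.6%, 62.9 to 93.0%) had an assigned peak, and 14 had one over the promoter. By role, peaks were assigned to 6 of 8 signals and co-receptors, all 5 antagonists and 8 of 10 transcription factors. Foxa2, a factor of endoderm and the anterior streak, had the most (7), followed by Wnt3, which initiates the streak, with 4. The genes without a peak were Tdgf1, which encodes a Nodal co-receptor, Fgf8, Foxh1 and Cdx4. The secreted antagonists of Nodal, Activin or Wnt signals (Lefty1, Lefty2, Cer1, Dkk1 and Fst) all had peaks, with 1 over the promoter at Dkk1 and at Fst.

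Of 12 cardiac progenitor genes 11 had an assigned peak, all but Hand2, with 3.5 peaks per gene over the list. Isl1 had 8, Tbx20 6, and Tbx5 and Hand1 5 each. All 12 genes of mesoderm derivatives had peaks, with 2.5 per gene and the most at Foxc1 (5). The 10 members with 1.5 peaks per gene were the lowest of the 4 lists on this measure. The mean over all protein coding genes was 1.07, and no interval was computed for these means. The interval of the members' share overlapped the intervals of the other 3 lists. Promoter coverage showed less spread, at 60% of the members, 60.9% of the other streak genes and 58.3% of the cardiac progenitor genes, and 9 of 11 annotated promoters of the mesoderm derivatives. These lists were chosen from general knowledge, with earlier results of these data known. At Mef2c and Pdgfra the nearest assigned peak lay 16 and 136 bp from the listed TSS but not over the 5′-most start, so they counted as having no promoter peak.

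**Figure D5:**
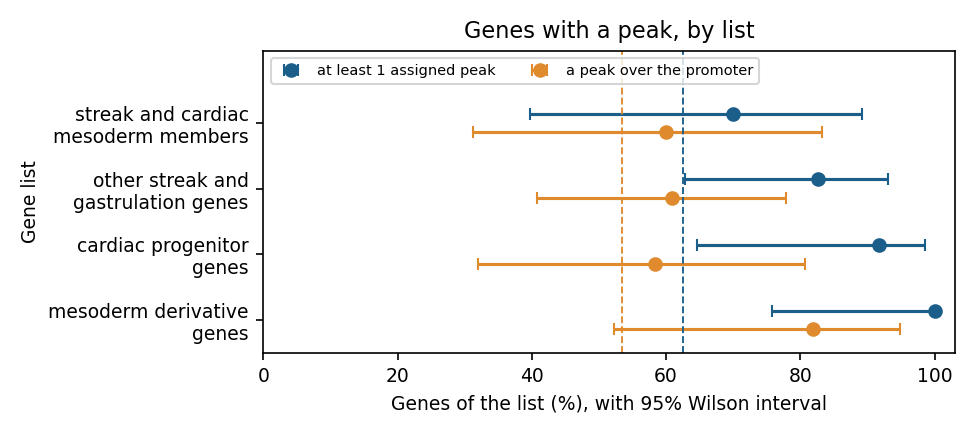
Percentage of genes of each list (horizontal axis) with at least 1 assigned peak (blue) and with a peak over the promoter (orange), with 95% Wilson confidence intervals for counting over genes only. Dashed lines give the shares over all protein coding genes (62.5%) and promoters (53.5%); the members, at 70% and 60%, have intervals that span both lines.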

How the data were processed

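ATAC-Seq was performed on 2 day 5 CPC samples of 1 group, and 1 peak list shared by both was deposited, with no column of a single sample. Per the study's methods and the submitters' processing notes, the authors mapped reads to mm9 with bowtie2, filtered them with samtools, removed duplicates with Picard 1.136, called peaks in each replicate with MACS without a fitted model, dropped blacklisted regions, and kept regions shared by at least 1 bp with bedtools 2.15. Assignment to the closest TSS is described for the ChIP-Seq peaks. A correction for the Tn5 cut position is not given in the sources used here. The deposited values are start, end and TSS distance in bp. Width follows caller and depth, and depth is unknown. Some original lines may be missing here.

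The 26429 lines were reduced to 26232 distinct intervals, and positions are printed 1-based. Sequence came from NCBIM37 and gene models from GENCODE vM1, both mm9. Of the 15 member distances 10 equalled a distance to an annotated TSS within 2 bp. Reference genes (RefSeq, GRCm38.p6) gave names and the 21900 protein coding genes used for comparison, and no peak positions. By accession, symbol or synonym 99.9% of peaks matched a reference gene. Intervals of shares are 95% Wilson intervals, and those of medians come from ranked values. Both cover counting error only. Members, lists and motifs were chosen with earlier results of these data known. All 10 members were to be named with every peak, and of each list the genes without a peak and those with the most. Fst, first listed among the signals, was counted with the antagonists after the values were seen. The measuring functions were tested on simulated data. Python 3.11.15 with pandas 2.3.3, scipy 1.17.1 and pysam 0.24.0 was used.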

Additional observations from a re-analysis of the deposited data

How the results depend on the processing

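The 6 summary values were members with a peak, their peaks, promoters with a peak, share within 1 kb, median width and median distance. They were recomputed under 20 combinations of result and alternative, and 18 stayed within 1.5 times the count or within the interval of the share or median. The intervals were 976 to 1560 bp for width and 794 to 21397 bp for distance. Some of these combinations could not move. For members with a peak no rise could pass the limit, since 10 is within 1.5 times 7. A minimum width of 500 bp could change nothing, since the narrowest member peak measured 508 bp. Falls from 15 to 10 peaks and from 6 to 4 promoters lay exactly on the limit. The number of peaks assigned to members rose from 15 to 23 when each peak went to the nearest annotated protein coding TSS. It rose to 33 when any peak within 50 kb of a member's TSS was counted. Both rules can add peaks that carry other symbols and can drop assigned ones. The first gave Lhx1 2 peaks and Msgn1 1 and took the only peak from Gsc, and the second gave all 10 members a peak. Keeping peaks wider than the median of the list left 10 peaks at the same 7 genes. Counting promoter peaks of the member's own symbol alone, chosen after seeing the data like the counts by symbol or promoter, lowered the promoters with a peak from 6 to 4. Leaving out a replicate, which was planned, was not run, since the list has no separate values for each replicate. With a single group nothing could be paired. Depth is unknown, so a missing peak gives no limit on accessibility.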

Other observations

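Assignment to a noncoding neighbour was also found outside the members. Among the other streak and gastrulation genes, the promoter of Zic2, which encodes a zinc finger factor, was covered by a peak that carried the symbol 2610035F20Rik, while the 2 peaks with the Zic2 symbol lay at 5857 bp or farther. With Evx1 and Lhx1 this made 3 genes of the 4 lists whose promoter peak carried only another symbol. The members, other streak, cardiac progenitor and mesoderm derivative lists had 6, 14, 7 and 9 promoters with a peak. Over all promoters with a peak the share of such cases was 11.0%, so they were not particular to these genes. Zic2 was singled out after its values were seen.

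Among pluripotency markers, Sox2 and Zfp42 had a peak over the promoter, at 88 and −132 bp, while the nearest Nanog peak lay at −4766 bp and Pou5f1 had none. These genes too were picked after their values were seen. Within the cardiac progenitor list, Hand1 had 5 peaks and none at its start, the nearest at −15525 bp, and Tbx1 had 1 peak, at 31605 bp.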
